A study of Mus musculus with 4 samples.

Results

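C-type lectin genes other than the Cd209 family were compared between 2 macrophage subsets of the mouse dermis. The 33 genes were chosen by name: the Clec genes, the macrophage galactose lectin gene Mgl2, the mannose receptor family (Mrc1, Mrc2, Pla2r1 and Ly75), the langerin gene Cd207, Cd69, Cd93 and the thrombomodulin gene Thbd. Of these, 32 had an array row that names a single gene, out of 22180 such genes in the table. The exception, Clec9a, was not analysed here because its row also names another gene. The test took in genes above the array median on at least 2 arrays, which 28 of the 32 were, out of 13133 genes tested. Pla2r1, Clec4b2, Clec1a and Clec14a lay below the median of every array and were too dim to test.

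The cells were sorted from the digested ear skin of untreated adult mice of strain C57Bl/6 with the genotype Cx3cr1+/gfp, in which GFP replaces 1 allele of the fractalkine receptor gene. All groups carried this allele, so every cell had a single working copy of Cx3cr1. The 2 subsets, CX3CR1low and CX3CR1bright, had 2 arrays each, every array was made from a pool of 3 to 6 mice, and the 2 pools of a subset came from independent litters. P-values therefore measure the spread between pools.

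C-type lectins share a fold that in many members binds sugars in a calcium-dependent way. On macrophages and dendritic cells they take up glycoproteins, recognise the surfaces of fungi and bacteria, and bind signals of dead cells. Receptors such as dectin-1, dectin-2 and Mincle signal through the kinase SYK, directly or through the adaptor FcRγ, to CARD9 and NF-κB, while receptors with an inhibitory tyrosine motif recruit phosphatases such as SHP-1. Dermal macrophages are known for high levels of the mannose receptor and of galactose-binding lectins.

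Levels are given as log2 values from RMA, a procedure that corrects background, brings the arrays to a common scale and summarises the probes of each gene. A pair of levels is in the order replicate 1, replicate 2, and a difference is CX3CR1bright minus CX3CR1low, so that 1 log2 unit is 2-fold. Adjusted p-values come from limma over all tested genes.

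The labels were checked first. Cx3cr1 itself, the gene of the gate, stood at 3.63 and 3.60 on the CX3CR1low arrays and at 8.42 and 8.44 on the CX3CR1bright arrays. Macrophage markers were present in both subsets, with the receptor gene Csf1r between 11.17 and 11.66 and the F4/80 gene Adgre1 between 10.19 and 10.51. Of the 13 listed macrophage genes with a row, all tested, 4 had positive and 9 negative differences, with a median of -0.34, and none passed the test (limma), with 1 higher and 4 lower at an unadjusted p under 0.05. Without overlap between the subsets, 3 of the 13 lay higher and 8 lower, beside 2483 and 4132 of the 13133 tested genes. Those at an unadjusted p under 0.05 (limma) were Folr2 (-1.15), Cd163 (-1.10), C1qc (-0.64), Cd68 (-0.64) and Timd4 (2.09). Fcgr1 (0.54) and Cd14 (0.30) also lay higher without overlap. Csf1r (-0.34), Mertk (-0.33), C1qa (-0.41) and C1qb (-0.17) also lay lower without overlap. The samples also held transcripts listed as markers of other cell types. Whether other cells or the macrophages themselves made them was not tested. The mean log2 level over the keratinocyte markers was 5.76 and 5.23 on the CX3CR1low arrays, 6.01 on CX3CR1bright replicate 1 and 7.68 on CX3CR1bright replicate 2, and all 10 tested markers had positive differences. Fibroblast markers lay at 5.68 to 5.77 against 6.41 to 6.49. Conventional dendritic cell markers lay at 5.71 to 5.87 against 6.55 to 6.57. Mast cell markers went the other way, at 6.55 and 6.68 against 6.35 and 6.17, and 7 of the 8 tested had negative differences. In such bulk samples, fewer cells of a type and less RNA per cell cannot be told apart. The array medians were 3.65 to 3.68, and a level near them can be background.

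The lectins differed in both directions. The largest differences towards CX3CR1bright were those of the inhibitory receptor gene Clec12a, Cd207, the early activation gene Cd69, the dectin-1 gene Clec7a and the CLEC-2 gene Clec1b. Those towards CX3CR1low were of the galactose lectin gene Clec10a, Thbd and Clec4a1, of the DCIR family. These 8 genes differed by at least 2-fold with no overlap between the subsets, 5 higher and 3 lower in CX3CR1bright among the 32 genes with a row. Over all 22180 genes, with no filter, 1.88% differed in this way upward and 1.77% downward. Without a size threshold, 9 lectins lay higher and 11 lower with no overlap, and 12 overlapped, where 18.3% and 25.5% of all genes lay higher and lower. The median difference was -0.04 over the 32 lectins and -0.01 over the 28 tested, beside -0.07 over all tested genes.

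None of the 28 tested lectins passed an adjusted p of 0.05 (limma), where 0.137% of all tested genes did. At an unadjusted p under 0.05 (limma) 7 lectins lay higher and 8 lower, beside 7.03% and 11.8% of all tested genes. Clec1b and Clec2i passed the filter through the CX3CR1bright arrays alone and Clec12b through the CX3CR1low arrays alone, so these 3, all among the 15 at an unadjusted p under 0.05 (limma), had to differ to be tested, and their own p-values are not given. With a stricter filter on dim genes Cd207, Cd69, Clec10a and Thbd had adjusted p-values of 0.0216, 0.0328, 0.0288 and 0.0456 (limma). These were 4 of 18 lectins tested there, where 372 of 7943 genes passed. Under an intensity trend Cd207, Cd69 and Clec10a had 0.0258, 0.0411 and 0.0306 (limma), 3 of 28 lectins, where 308 of 13133 genes passed.

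**Figure D1:**
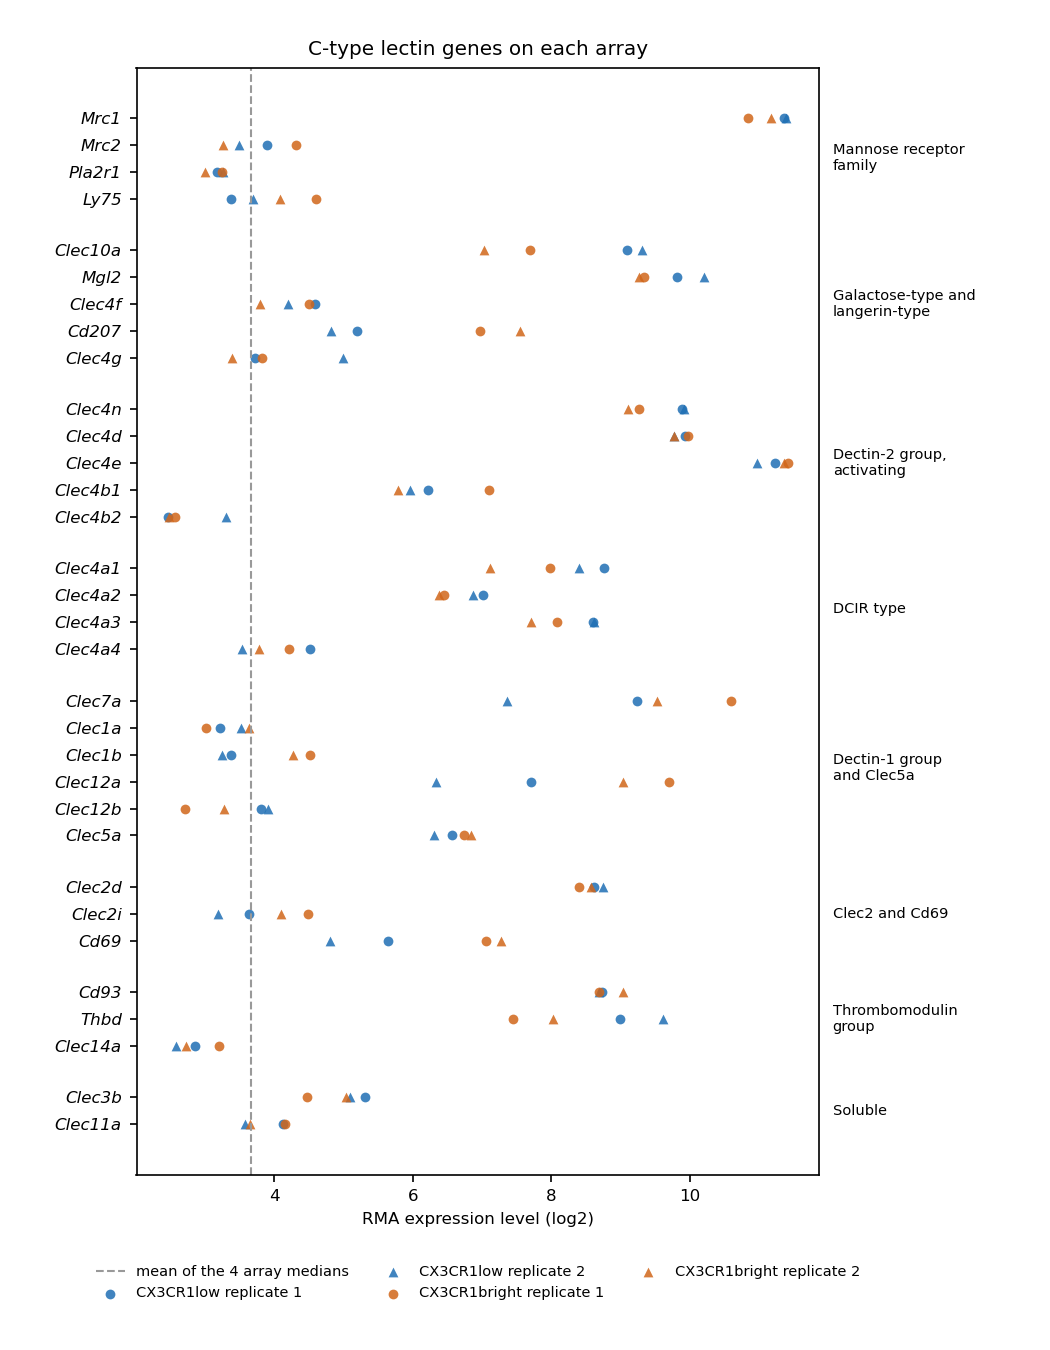
RMA level (log2, horizontal axis) of the 32 lectin genes with a row (vertical axis, grouped by role) on each of the 4 arrays. Blue marks CX3CR1low, orange CX3CR1bright, circles replicate 1 and triangles replicate 2, and the dashed line is the mean of the array medians. Levels of different genes come from different probes and cannot be set against each other. Within a row, both orange points of Cd207, Cd69, Clec7a, Clec12a and Clec1b lie to the right of both blue ones, and those of Clec10a, Thbd and Clec4a1 to the left.

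**Figure D2:**
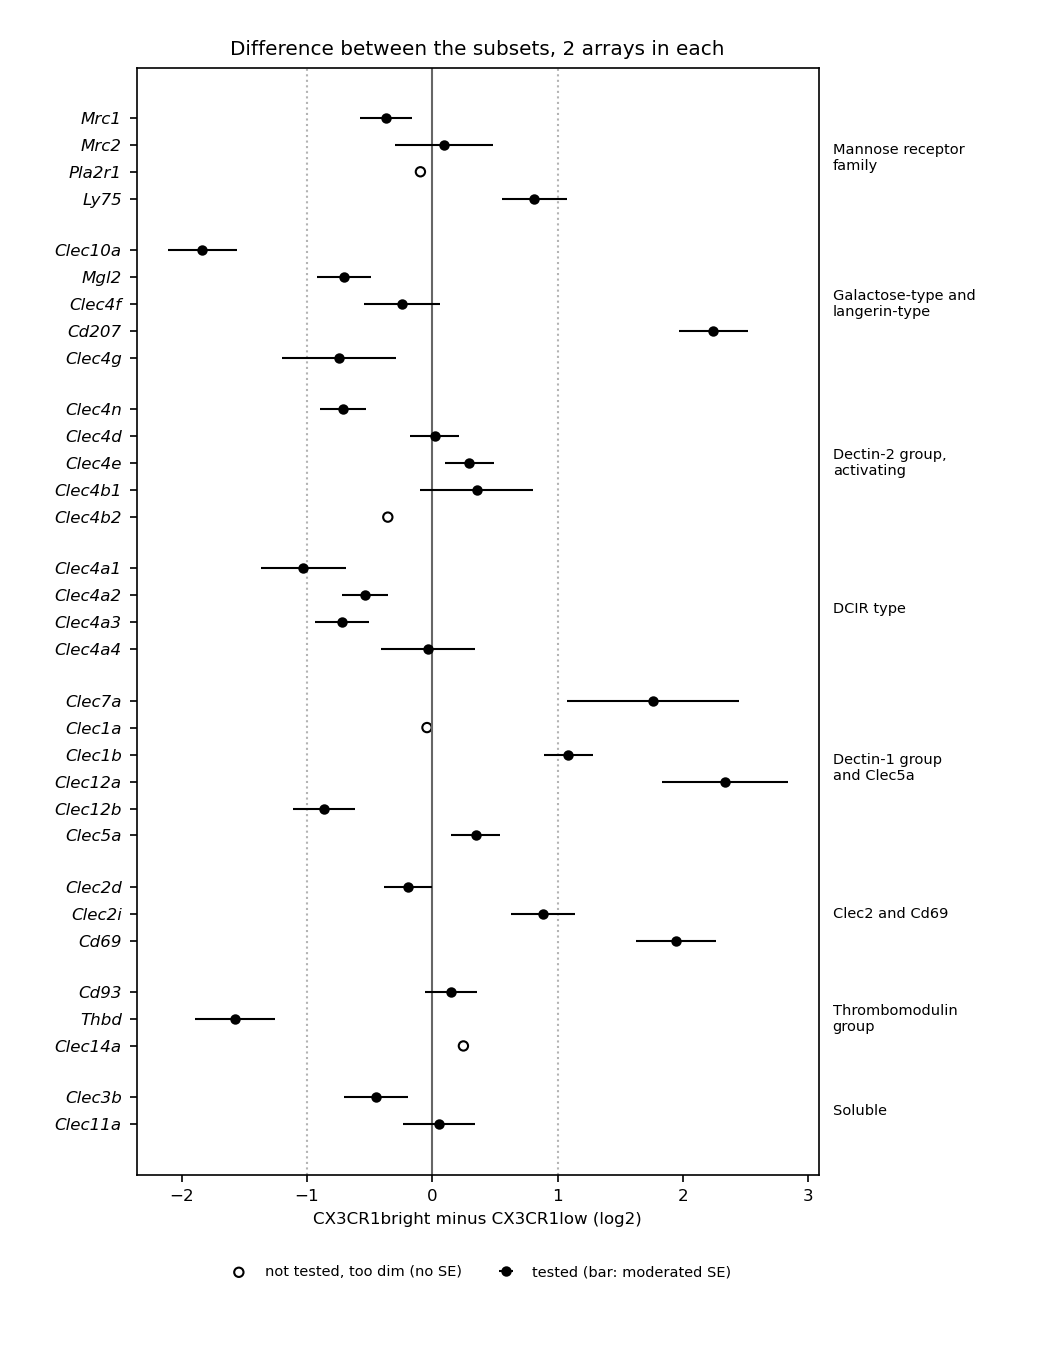
Difference CX3CR1bright minus CX3CR1low (log2, horizontal axis) for the same genes and role groups. Filled points were tested and carry the moderated SE, open points were too dim, and dotted lines mark a 2-fold difference. The differences run from -1.83 for Clec10a to 2.34 for Clec12a.

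Among the lectins that bind galactose and related sugars, both macrophage galactose lectin genes were lower in CX3CR1bright. Clec10a (transcript cluster 17251978), which encodes MGL1, a receptor for Lewis-type and other galactose-bearing glycans, stood at 9.09 and 9.31 on the CX3CR1low arrays and at 7.69 and 7.03 on the CX3CR1bright arrays. Both CX3CR1bright pools lay below both CX3CR1low pools. The difference was -1.83 ± 0.28 (SE, n = 2 per subset) on the log2 scale, 3.57-fold (limma, adjusted p = 0.0845).

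Mgl2, its neighbour on chromosome 11, encodes MGL2, which binds galactose and N-acetylgalactosamine. It stood at 9.81 and 10.21 in CX3CR1low and at 9.34 and 9.27 in CX3CR1bright, again without overlap. The difference was smaller, -0.70 ± 0.22 or 1.63-fold (limma, adjusted p = 0.190). The 2 genes are close paralogs, so probe signal may be shared between them, and whether their differences differ from each other was not tested. Clec4f, a Kupffer cell receptor in mice, and Clec4g, the LSECtin gene of liver sinusoids, stood between 3.40 and 4.99 on the 4 arrays, with overlap between the subsets, and differed by -0.24 ± 0.30 and -0.74 ± 0.45. The Clec4g value was -0.11 without CX3CR1low replicate 2 and -1.38 without CX3CR1low replicate 1.

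Cd207 (cluster 17468222) encodes langerin, the mannose-binding receptor that forms Birbeck granules in Langerhans cells and is also made by some dermal dendritic cells. It went the other way from Clec10a, with 5.20 and 4.82 on the CX3CR1low arrays and 6.97 and 7.54 on the CX3CR1bright arrays. All 4 values lay above the array medians, and the subsets did not overlap. The difference was 2.24 ± 0.28, or 4.73-fold (limma, adjusted p = 0.0706).

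Genes of other skin cells were set beside Cd207. The epithelial adhesion gene Epcam, which Langerhans cells share with keratinocytes, stood at 3.91 and 4.06 in CX3CR1low, 4.53 on CX3CR1bright replicate 1 and 6.73 on CX3CR1bright replicate 2. The E-cadherin gene Cdh1 stood at 6.10, 5.75, 6.47 and 9.24 on the same arrays. Both genes were thus high on CX3CR1bright replicate 2 alone, whereas Cd207 was high on both CX3CR1bright arrays. Il1r2, the gene of an interleukin-1 decoy receptor and one of the listed Langerhans cell genes, had the pattern of Cd207, with 6.41 and 5.98 in CX3CR1low and 8.18 and 7.98 in CX3CR1bright, a difference of 1.88 (limma, adjusted p = 0.0706). Over the 8 of 9 listed Langerhans cell genes with a row, Cd207 not among them, the mean level was 6.07 to 6.11 in CX3CR1low and 6.38 and 6.82 in CX3CR1bright, and Hapln3 lay below every array median. Of the 7 tested, 4 had positive and 3 negative differences. The negative ones were Cbr2 (-1.06) and Mfge8 (-0.45), both without overlap, and Gpr34 (-0.63), with overlap. The part of Langerhans cell transcripts in the Cd207 difference was not tested. Without CX3CR1bright replicate 2 the Cd207 difference was 1.95 (limma, adjusted p = 0.116), and without CX3CR1bright replicate 1 it was 2.53 (limma, adjusted p = 0.0365).

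**Figure D3:**
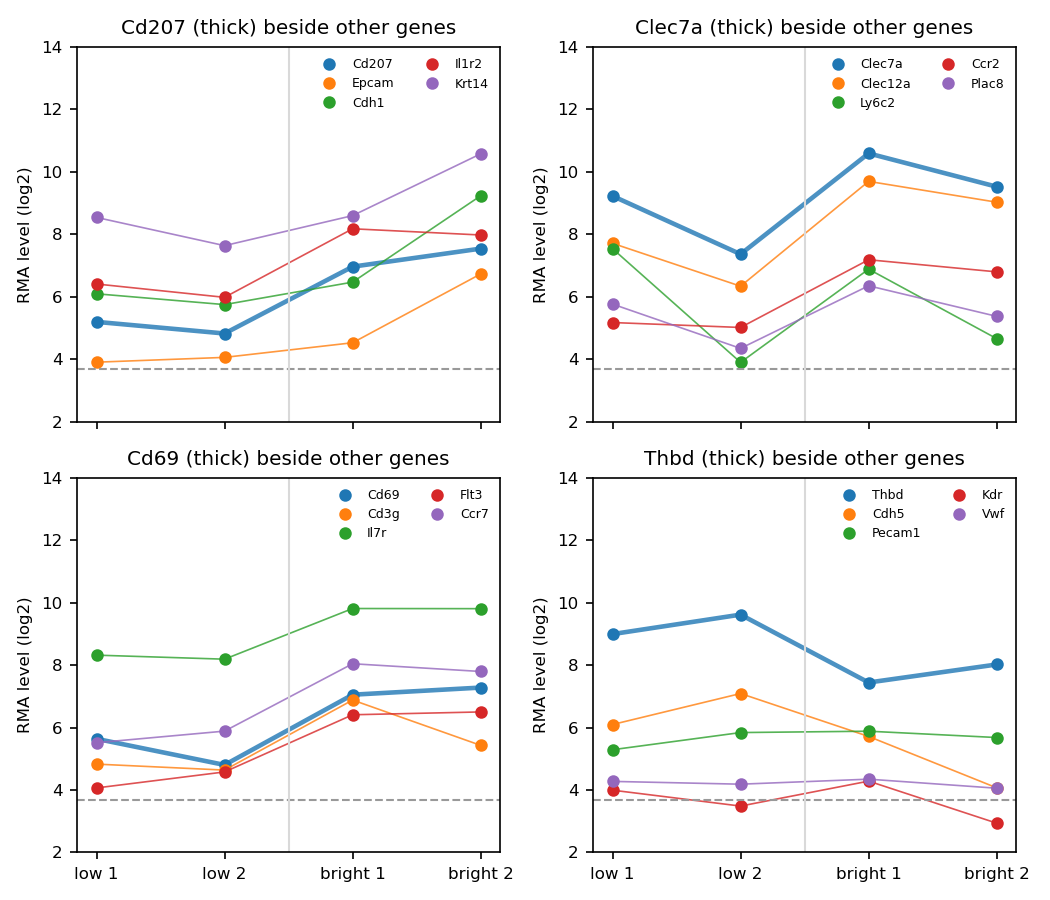
RMA level (log2, vertical axis) of Cd207, Clec7a, Cd69 and Thbd (thick lines) on the 4 arrays (horizontal axis), each beside genes of other cell types (thin lines). Lines join the values of a gene and imply no order of replicates; the dashed line is the mean of the array medians. Epcam, Cdh1 and Krt14 peak on CX3CR1bright replicate 2 while Cd207 and Il1r2 are high on both CX3CR1bright arrays, and Clec7a, Clec12a and Ly6c2 are each higher on replicate 1 than on replicate 2 of both subsets.

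The dectin-2 group lies together on chromosome 6 and holds activating receptors beside the DCIR type. Of its 4 DCIR-type genes, 3 lay lower in CX3CR1bright without overlap, as did 25.5% of all genes. Clec4a1 (cluster 17462729) stood at 8.76 and 8.41 in CX3CR1low and at 7.99 and 7.12 in CX3CR1bright, a difference of -1.03 ± 0.34 or 2.04-fold (limma, adjusted p = 0.203). Clec4a3 stood at 8.60 and 8.62 against 8.08 and 7.70, a difference of -0.72 ± 0.21. For both genes the higher CX3CR1bright array was replicate 1, and it still lay below both CX3CR1low arrays. Clec4a2, the DCIR1 gene with an inhibitory motif, stood at 7.02 and 6.88 against 6.45 and 6.37, a difference of -0.53 ± 0.18.

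Clec4a4, the gene of DCIR2, which carries an inhibitory motif and marks a dendritic cell population of the mouse spleen, overlapped between the subsets. It stood at 4.52 and 3.54 against 4.22 and 3.78 and differed by -0.03 ± 0.37. The DCIR genes are close paralogs in a row, so probe signal may be shared between them, which was not tested. For Clec4a1 the value rested on CX3CR1bright replicate 2, without which it was -0.59 (limma, adjusted p = 0.340). It was also under 2-fold after quantile normalization and after cyclic loess.

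Of the activating receptors of the group, Clec4n lay lower and Clec4e higher in CX3CR1bright without overlap. Clec4n, the dectin-2 gene, whose protein binds fungal mannans, stood at 9.89 and 9.92 in CX3CR1low and at 9.26 and 9.11 in CX3CR1bright, a difference of -0.71 ± 0.18 (limma, adjusted p = 0.154). The CX3CR1low pools lay within 0.03 of each other. Clec4e, the gene of Mincle, a receptor for mycobacterial cord factor, stood at 11.22 and 10.97 against 11.42 and 11.36, a difference of 0.29 ± 0.20 without overlap. Clec4d, the gene of MCL, the partner of Mincle, stood at 9.93 and 9.76 against 9.97 and 9.77 and differed by 0.02 ± 0.20. Clec4b1, which encodes the FcRγ-coupled receptor DCAR, stood at 6.21 and 5.96 against 7.10 and 5.78, so its CX3CR1bright pools lay on either side of the CX3CR1low pools. The Clec4b1 difference was 0.35 ± 0.45, or 1.01 without CX3CR1bright replicate 2 and -0.31 without CX3CR1bright replicate 1.

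The dectin-1 group, also on chromosome 6, held 3 of the 5 lectins that lay at least 2-fold higher in CX3CR1bright without overlap. Clec12a (cluster 17463509) encodes MICL, an inhibitory receptor for uric acid crystals from dead cells. It stood at 7.71 and 6.34 in CX3CR1low and at 9.70 and 9.03 in CX3CR1bright. The subsets did not overlap, but the CX3CR1low pools lay 1.37 apart. The difference was 2.34 ± 0.50, or 5.05-fold (limma, adjusted p = 0.117). It was 1.65 without CX3CR1low replicate 2 and 3.02 without CX3CR1low replicate 1.

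Clec7a (cluster 17471541), the gene of the β-glucan receptor dectin-1, stood at 9.23 and 7.37 in CX3CR1low and at 10.59 and 9.53 in CX3CR1bright. The highest CX3CR1low pool lay 0.30 below the lowest CX3CR1bright pool, while the CX3CR1low pools themselves lay 1.86 apart. The difference was 1.76 ± 0.68, or 3.39-fold (limma, adjusted p = 0.261). Without CX3CR1low replicate 2 it was 0.83, and without CX3CR1low replicate 1 it was 2.69, so its size rested on single arrays.

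In both genes the array numbered replicate 1 stood above replicate 2 within each subset, though no label says that the numbers pair the pools, by 1.86 and 1.07 for Clec7a and by 1.37 and 0.67 for Clec12a. The monocyte gene Ly6c2 followed the same order, with 7.54 and 3.90 in CX3CR1low and 6.89 and 4.66 in CX3CR1bright, and Plac8 stood at 5.77, 4.35, 6.35 and 5.37. Ccr2, a chemokine receptor of inflammatory monocytes, also followed this order and separated the subsets, with 5.18 and 5.02 against 7.19 and 6.80. Over the 11 of 12 listed neutrophil and monocyte genes with a row, the mean level was 4.03 and 3.52 in CX3CR1low and 4.36 and 4.0 in CX3CR1bright, and 4 genes lay below every array median. Of the 6 tested, 5 had positive differences and 1 a negative one. The negative one was Mpo, at 3.84 and 3.87 against 3.79 and 3.32, lower without overlap. Mpo, Ltf and Cxcr2 did not follow the replicate order of Clec7a, as replicate 1 was the higher in 1 subset alone for each. The part of monocyte transcripts in the Clec7a and Clec12a differences was not tested. Across the 28 tested lectins, replicate 1 was the higher in both subsets for 13 genes and the lower in both for 4, beside 26.5% and 29.9% of all tested genes.

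Clec1b encodes CLEC-2, the podoplanin receptor best known on platelets and also found on some dendritic cells of mice. It stood at 3.37 and 3.25 in CX3CR1low, below the array medians, and at 4.52 and 4.28 in CX3CR1bright. The difference in the measured values was 1.09, but its size is set against CX3CR1low levels that cannot be told from background. Over the 7 of 10 listed platelet genes with a row the mean level was 5.43 to 5.50 in CX3CR1low and 5.54 to 5.58 in CX3CR1bright, and Gp5 and Gp6 lay below every array median. Of the 5 tested, 3 had positive and 2 negative differences. Gp9, with 3.44 and 3.56 against 4.21 and 4.33, and Treml1, with 4.70 and 4.26 against 4.96 and 4.90, lay higher in CX3CR1bright without overlap, as Clec1b did. Gp9 passed the filter through the CX3CR1bright arrays alone. Pf4, with 11.83 and 11.77 against 11.44 and 11.41, and Itga2b, with a difference of -0.16, lay lower without overlap. The part of platelet transcripts in the Clec1b difference was not tested.

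Clec12b, an inhibitory receptor gene, went the other way at low levels, with 3.81 and 3.91 in CX3CR1low against 2.72 and 3.27 in CX3CR1bright, below the median there, and a difference of -0.86. Clec5a, whose protein signals through the adaptor DAP12, stood at 6.57 and 6.31 against 6.74 and 6.84, a difference of 0.35 ± 0.20 without overlap. Clec1a, the gene of the melanin receptor MelLec, lay between 3.02 and 3.64 on all arrays.

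The order of these genes along chromosome 6 was taken from the RefSeq gene table. In the dectin-2 group Clec4a1, Clec4a3, Clec4a4, Clec4b1, Clec4a2, Clec4b2, Clec4n, Clec4d and Clec4e follow each other with 0 other protein-coding genes between them. Their differences ran from -1.03 for Clec4a1 to 0.35 for Clec4b1. Cd69 and then the dectin-1 genes Clec12a, Clec12b, Clec1b, Clec9a, Clec1a and Clec7a follow each other, with 1 other gene between Cd69 and Clec12a. There the differences had both signs, with 1.95 for Cd69, 2.34 for Clec12a, -0.86 for its neighbour Clec12b and 1.09 for Clec1b next to that. Cd207 and Clec4f are also direct neighbours on this chromosome and differed by 2.24 and -0.24.

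**Figure D4:**
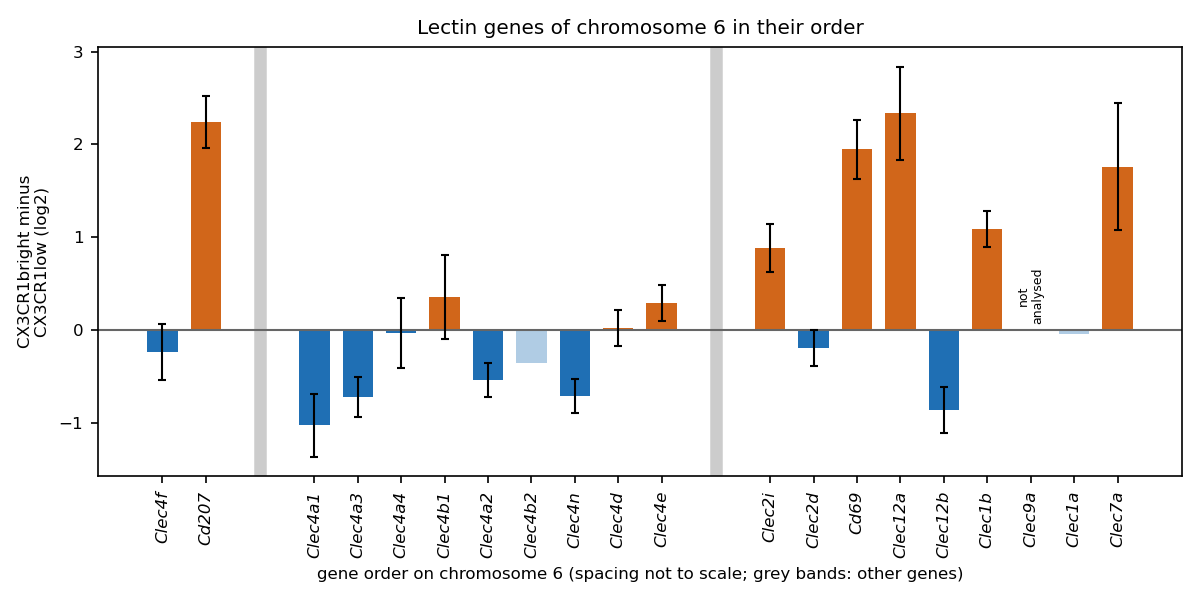
Difference CX3CR1bright minus CX3CR1low (log2, vertical axis) of the lectin genes of chromosome 6 in their order along the chromosome (horizontal axis, spacing not to scale, Clec5a left out). Bars are differences with the moderated SE, pale bars were too dim to test, and grey bands stand for stretches of other genes. The dectin-2 block in the middle runs from -1.03 to 0.35 and the block on the right, from Clec2i to Clec7a, from -0.86 to 2.34.

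The promoter windows of genes from both blocks are shown because the higher members of the dectin-1 block and the lower DCIR members share a direction, while genes beside them have the other or none. Each window holds 250 bases before and 50 after a RefSeq transcript start of build GRCm38.p6. Capitals mark GAGGAA, the core of sites for the myeloid factor PU.1, and TGANTCA, an AP-1-type pattern in which N is any base, on either strand. The TGANTCA stretch of Clec12a reads TGAATCA and those of Clec4a2 and Cd207 read TGACTCA. The motifs shared no base in these windows. Clec12a lies at chr6:129349994-129350293 (plus strand), Clec1b at chr6:129397047-129397346 (plus), Clec7a at chr6:129472730-129473029 (minus), Clec4a1 at chr6:122921598-122921897 (plus), Clec4a3 at chr6:122952265-122952564 (plus), Clec4a2 at chr6:123122440-123122739 (plus) and Cd207 at chr6:83677808-83678107 (minus).
Clec12a: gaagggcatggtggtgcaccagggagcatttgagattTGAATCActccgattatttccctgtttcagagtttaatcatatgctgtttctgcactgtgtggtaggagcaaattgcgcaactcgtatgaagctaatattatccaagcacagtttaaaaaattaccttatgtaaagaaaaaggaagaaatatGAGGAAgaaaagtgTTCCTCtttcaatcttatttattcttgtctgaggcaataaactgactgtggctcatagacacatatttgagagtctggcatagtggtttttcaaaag
Clec1b: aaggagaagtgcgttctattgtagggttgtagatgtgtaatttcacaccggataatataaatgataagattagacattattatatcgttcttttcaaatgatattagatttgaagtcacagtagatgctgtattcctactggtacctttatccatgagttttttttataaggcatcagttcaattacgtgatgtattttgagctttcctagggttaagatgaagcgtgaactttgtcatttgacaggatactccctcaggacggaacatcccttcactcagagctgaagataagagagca
Clec7a: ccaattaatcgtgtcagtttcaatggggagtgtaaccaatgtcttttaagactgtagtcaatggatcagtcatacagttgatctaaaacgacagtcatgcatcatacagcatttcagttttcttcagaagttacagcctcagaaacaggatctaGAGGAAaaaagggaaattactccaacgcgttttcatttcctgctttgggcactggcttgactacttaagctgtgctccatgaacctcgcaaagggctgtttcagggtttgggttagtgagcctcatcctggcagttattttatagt
Clec4a1: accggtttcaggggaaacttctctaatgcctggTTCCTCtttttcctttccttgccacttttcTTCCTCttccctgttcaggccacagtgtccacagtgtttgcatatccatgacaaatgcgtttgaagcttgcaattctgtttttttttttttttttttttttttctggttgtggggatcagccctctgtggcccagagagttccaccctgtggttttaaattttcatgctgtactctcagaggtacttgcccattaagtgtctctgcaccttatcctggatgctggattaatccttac
Clec4a3: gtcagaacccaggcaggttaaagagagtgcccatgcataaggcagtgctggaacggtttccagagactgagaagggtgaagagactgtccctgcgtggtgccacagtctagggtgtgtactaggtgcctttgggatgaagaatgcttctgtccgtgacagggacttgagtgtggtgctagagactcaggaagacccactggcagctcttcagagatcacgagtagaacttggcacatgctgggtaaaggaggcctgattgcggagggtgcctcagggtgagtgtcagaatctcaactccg
Clec4a2: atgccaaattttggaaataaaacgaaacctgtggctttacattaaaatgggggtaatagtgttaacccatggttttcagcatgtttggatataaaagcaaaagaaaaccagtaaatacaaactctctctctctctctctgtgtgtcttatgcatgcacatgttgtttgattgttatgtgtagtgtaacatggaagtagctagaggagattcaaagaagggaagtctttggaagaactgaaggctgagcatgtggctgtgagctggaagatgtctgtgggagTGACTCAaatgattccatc
Cd207: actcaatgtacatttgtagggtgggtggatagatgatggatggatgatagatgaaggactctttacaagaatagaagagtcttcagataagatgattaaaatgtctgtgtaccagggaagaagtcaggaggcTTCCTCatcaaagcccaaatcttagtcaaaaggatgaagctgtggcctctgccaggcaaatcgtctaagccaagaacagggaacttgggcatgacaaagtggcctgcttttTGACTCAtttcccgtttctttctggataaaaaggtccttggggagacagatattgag

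The Clec12a window holds GAGGAA 2 times and TGANTCA 1 time, Clec7a holds GAGGAA 1 time, and the Clec1b window neither. Of the DCIR genes, Clec4a1 holds GAGGAA 2 times, Clec4a2 holds TGANTCA 1 time and Clec4a3 neither, so the windows of both blocks include some with and some without each motif. Cd207 holds each 1 time. The table has 27 windows for 24 of the 33 lectins, and 15 of the 27 hold GAGGAA and 3 hold TGANTCA. Of all 32851 windows of this length, 28.3% hold GAGGAA and 7.81% hold TGANTCA. Several lectin windows belong to paralogs of shared origin and are not independent.

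Next to the dectin-1 block lie Clec2i, Clec2d and Cd69. Cd69 (cluster 17471502) encodes an early activation antigen that keeps lymphocytes in tissue by removing the sphingosine phosphate receptor from their surface, and myeloid cells make it as well. It stood at 5.64 and 4.80 in CX3CR1low and at 7.05 and 7.28 in CX3CR1bright, with no overlap. The difference was 1.95 ± 0.32, or 3.85-fold (limma, adjusted p = 0.0917). The T cell receptor gene Cd3g stood at 4.83 and 4.64 in CX3CR1low, 6.88 on CX3CR1bright replicate 1 and 5.43 on CX3CR1bright replicate 2. The Cd3g difference was 1.42 ± 0.48. Il7r, a cytokine receptor gene of the same list, had the pattern of Cd69, with 8.32 and 8.19 in CX3CR1low and 9.81 on both CX3CR1bright arrays, a difference of 1.56 (limma, adjusted p = 0.0632). Over the 10 of 12 listed T and NK cell genes with a row the mean level was 4.30 to 4.40 in CX3CR1low and 5.25 and 4.63 in CX3CR1bright, and Ncr1 and Klrb1c stood at 3.70 or less on all arrays. All 7 tested genes of the list had positive differences. Of these, Cd3g and Il7r lay higher without overlap. Cd3e, Cd2, Nkg7, Cd8a and Thy1 overlapped between the subsets, with differences from 0.11 for Thy1 to 0.72 for Nkg7. The part of lymphocyte transcripts in the Cd69 difference was not tested.

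Clec2d and Clec2i encode ligands of the NKR-P1 receptors of natural killer cells. Clec2d stood at 8.61 and 8.75 in CX3CR1low and at 8.40 and 8.57 in CX3CR1bright, a difference of -0.19 ± 0.19. Clec2i stood at 3.63 and 3.18, below the array medians, against 4.48 and 4.10, a difference of 0.88. The higher Clec2i values lay within 1 log2 unit of the medians, where background can limit them.

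In the mannose receptor family Mrc1, the gene of the mannose receptor CD206, lay far above the array medians in both subsets. It stood at 11.36 and 11.39 in CX3CR1low and at 10.84 and 11.17 in CX3CR1bright, a difference of -0.37 ± 0.21 or 1.29-fold without overlap (limma, adjusted p = 0.404). Ly75 encodes DEC-205, an antigen uptake receptor of dendritic cells. It stood at 3.37 and 3.69 in CX3CR1low and at 4.60 and 4.09 in CX3CR1bright, a difference of 0.81 ± 0.26 (limma, adjusted p = 0.192), with the CX3CR1low values near the array medians. The dendritic cell markers Flt3, at 4.06 and 4.58 against 6.41 and 6.50, and Ccr7, at 5.51 and 5.88 against 8.04 and 7.79, separated the same arrays, while Xcr1, a marker of cross-presenting dendritic cells, stood at 4.62 and 4.48 against 4.68 and 4.22. Of the 12 listed dendritic cell genes, all with a row, 8 had positive and 4 negative differences. Among the negative ones Irf8, at 8.21 and 8.16 against 8.03 and 7.51, lay lower without overlap (-0.42). The others, Xcr1, Kit and Sirpa, overlapped between the subsets. Mrc2, the collagen uptake receptor gene Endo180, stood between 3.26 and 4.32 with overlap. Pla2r1, the phospholipase receptor gene, lay between 3.01 and 3.26.

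In the thrombomodulin group Thbd and Cd93 are neighbours on chromosome 2. Thbd (cluster 17392568), the gene of thrombomodulin, which binds thrombin and turns it to the activation of protein C, stood at 8.99 and 9.62 in CX3CR1low and at 7.44 and 8.02 in CX3CR1bright. No CX3CR1bright pool reached a CX3CR1low pool. The difference was -1.57 ± 0.32, or 2.98-fold lower in CX3CR1bright (limma, adjusted p = 0.108).

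Thrombomodulin is also made by endothelial cells. The endothelial cadherin gene Cdh5 stood at 6.10 and 7.09 in CX3CR1low and at 5.71 and 4.07 in CX3CR1bright, Pecam1 stood between 5.29 and 5.88 and Vwf between 4.06 and 4.35. Over the 12 of 12 listed endothelial genes with a row the mean level was 4.02 and 4.16 in CX3CR1low and 4.25 and 3.71 in CX3CR1bright, and Tek, Esam and Emcn lay below every array median. Of the 8 tested, 2 had positive and 6 negative differences, with a median of -0.03. Cdh5 (-1.70) lay lower in CX3CR1bright without overlap, and all other tested genes of the list overlapped between the subsets. The part of endothelial transcripts in the Thbd difference was not tested.

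Cd93, which takes part in the adhesion of endothelial and myeloid cells, stood at 8.74 and 8.69 against 8.68 and 9.04, a difference of 0.15 ± 0.21 with overlap. Clec14a, an endothelial lectin gene, lay between 2.58 and 3.20, below the medians. Of the soluble members, Clec3b, the gene of tetranectin, a plasminogen-binding protein of connective tissue, stood at 5.31 and 5.09 against 4.48 and 5.03, a difference of -0.45 ± 0.26, while fibroblast markers went the other way, with 12 of 12 positive. Clec11a, which encodes a growth factor of blood and bone progenitors, stood between 3.58 and 4.15 with overlap.

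The signalling genes that lectin receptors act through were taken as a list of 30, of which 26 had a row and all 26 were tested. The levels of both adaptor genes overlapped between the subsets. Fcer1g, which encodes the FcRγ chain used by dectin-2 and Mincle, stood at 11.13 and 10.97 in CX3CR1low and at 11.02 and 10.77 in CX3CR1bright, a difference of -0.15 ± 0.20. Tyrobp, the DAP12 gene, differed by -0.11 ± 0.21. The kinase gene Syk stood at 8.57 and 8.62 against 8.17 and 8.04, a difference of -0.49 ± 0.18 without overlap (limma, adjusted p = 0.245). Card9 stood at 5.73 and 5.80 against 6.55 and 5.34 and differed by 0.18 ± 0.41, with overlap.

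Further down the pathway Malt1, the protease partner of CARD9 and BCL10, stood at 9.12 and 8.84 in CX3CR1low and at 9.69 and 9.81 in CX3CR1bright, a difference of 0.77 ± 0.20 (limma, adjusted p = 0.155). The NF-κB subunit gene Rel differed by 0.73 ± 0.21, the inflammasome gene Nlrp3 by 0.67 ± 0.22, and Map3k14, which encodes the kinase NIK of the non-canonical NF-κB route, by 1.10 ± 0.20 (limma, adjusted p = 0.0978). Src, a kinase gene, stood at 6.55 and 6.74 against 5.25 and 5.48, a difference of -1.27 ± 0.20 (limma, adjusted p = 0.0907). Ptpn6, the gene of the phosphatase SHP-1 that inhibitory lectins recruit, differed by 0.43 ± 0.19, without overlap. None of the 26 passed over all genes (limma), and at an unadjusted p under 0.05 there were 4 higher and 2 lower, beside the 7.03% and 11.8% of all tested genes given above. The list had 14 positive and 12 negative differences and a median of 0.10, or 0.24 after cyclic loess.

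**Figure D5:**
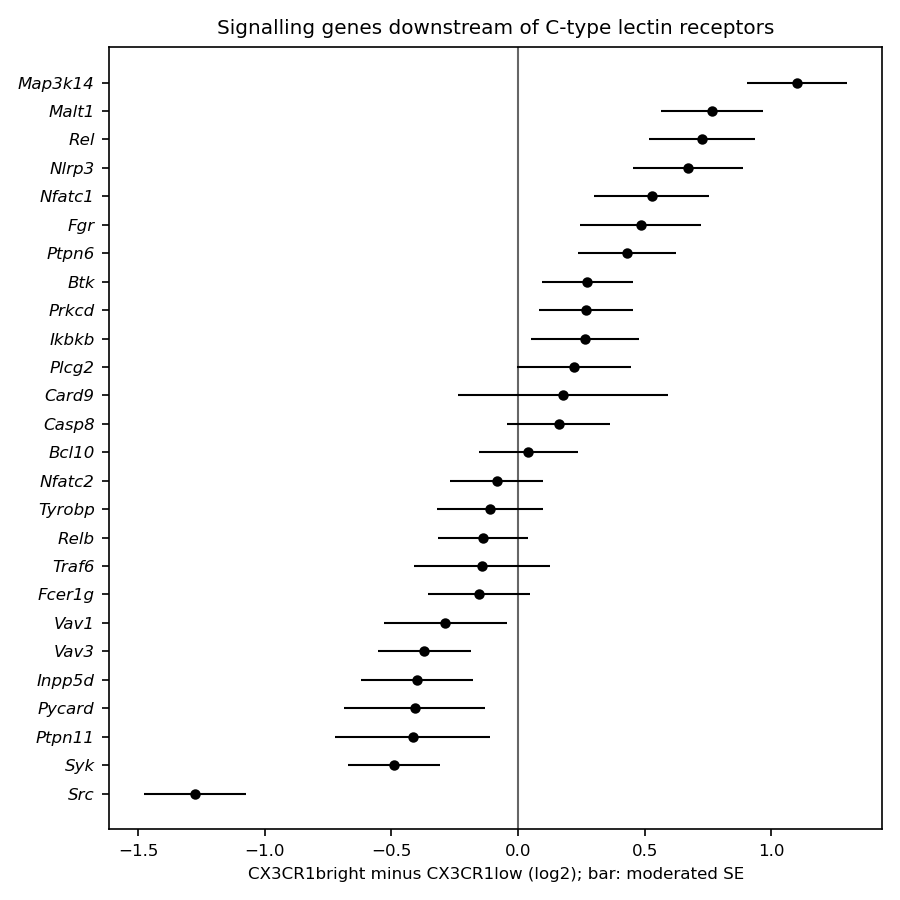
Difference CX3CR1bright minus CX3CR1low (log2, horizontal axis) with the moderated SE for the 26 tested signalling genes (vertical axis, ordered by difference). The values run from -1.27 for Src to 1.10 for Map3k14, and Bcl10, Tyrobp and Fcer1g lie within 1 SE of 0.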

How the data were processed

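RNA of sorted dermal macrophages was measured on Affymetrix whole-transcript arrays, labelled with the WT Pico kit per the labels' protocols. The deposited log2 levels were computed with Affymetrix Expression Console 1.4 by RMA, as the submitters' processing notes name it and the authors deposited it; RMA corrects background, equalises the arrays and summarises the probes of a transcript cluster. The array annotation's genome build is not given in the sources used here; the coordinates printed are those of the RefSeq promoter table (GRCm38.p6). Scanner intensities and detection calls were not used here.

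Of 34390 clusters, 23521 carried 1 symbol, 1814 several and 9055 none. Of several single-symbol clusters the brightest on average stood for a gene; each lectin had just 1, and all 32 symbols matched RefSeq by Entrez identifier. Genes were tested in R 4.3.3 by lmFit and eBayes of limma 3.58.1 (two-sided, Benjamini-Hochberg over 13133 genes, threshold 0.05), with 2 residual and 3.28 prior degrees of freedom; the SE is the moderated one. The procedure was tested on simulated data. The number of arrays limits the precision.

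The lectins, lists and tests were chosen with earlier results of these data known. Array values were given for lectins at least 2-fold apart without overlap or with an unadjusted p under 0.05 (limma), and for Mrc1, Clec7a, Clec4e, Clec4a2 and Ly75; the other lectins are given by role group, by their levels on the arrays or a range. Of the signalling list the 6 genes with the smallest p were named, with Syk, Card9, Fcer1g, Tyrobp and Ptpn6. Markers of other cell types set beside a lectin come from fixed lists, but which of their genes to print was chosen after their values were seen. Alternatives varied the filter, the clusters used, scaling, variance model, replicate block, threshold and single arrays.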

Additional observations from a re-analysis of the deposited data

How the results depend on the processing

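The 8 lectins that differed by at least 2-fold without overlap kept their direction under every alternative run in which they were tested; Clec1b was too dim for the stricter filter. Their number was 4 to 8 higher and 3 lower with an array left out; the 8 arose without CX3CR1bright replicate 2, where Ly75, Clec2i and Clec4b1 joined. The 3 lower were not always the same genes: Clec4a1 left them without CX3CR1low replicate 1, where Clec4g entered, and without CX3CR1bright replicate 2, where Clec12b entered. Of the higher ones, Clec7a left without CX3CR1low replicate 2 and Clec1b without CX3CR1bright replicate 1, and Clec2i joined without CX3CR1low replicate 1. In the main setting 0 of 28 tested lectins passed the threshold (limma, 15 at an unadjusted p under 0.05). With a stricter filter 4 of 18 did, beside 372 of 7943 genes. Under an intensity trend 3 of 28 did, beside 308 of 13133 genes. At an adjusted p under 0.1 (limma) 3 of 28 did, beside 293 of 13133 genes. With an array left out the difference ran from 1.95 to 2.53 for Cd207 and from -2.16 to -1.51 for Clec10a. Over all genes 18 passed, 8 higher and 10 lower. That count was 1 with no filter, after quantile normalization and under a robust prior (1 higher and 0 lower each), 372 with a stricter filter (118 and 254), 33 after cyclic loess (19 and 14), 308 under an intensity trend (112 and 196), 293 at an adjusted p under 0.1 (133 and 160), and 0 to 154 with an array left out (0 to 111 higher, 0 to 43 lower). No label ties same-numbered replicates to a common litter, and their deviations correlated at 0.155 across 13133 genes; with the replicate block 0 genes passed (0 higher and 0 lower, limma, 2637 at an unadjusted p under 0.05) and 0 lectins did. Scaling moved the median of all tested genes from -0.07 to 0.02 after cyclic loess. The median over tested lectins was -0.20 to 0.14 with an array left out.

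Reversals were limited to genes with small differences. With an array left out the difference ran from -0.433 to 0.621 for Mrc2, from -0.590 to 0.113 for Clec4f, from -0.0837 to 0.122 for Clec4d, from -0.305 to 1.01 for Clec4b1, from -0.520 to 0.456 for Clec4a4, from -0.0293 to 0.328 for Cd93, from -0.218 to 0.325 for Clec11a, from -0.429 to 0.784 for Card9 and from -0.289 to 0.0672 for Tyrobp. After quantile normalization Tyrobp differed by 0.0280. The causes were not tested. Levels near the array medians limit Clec1b, Clec2i, Clec12b and Ly75.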
